A study of Rattus norvegicus with 24 samples.

Results

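The 9 control arrays described here carried RNA of the supraoptic nucleus of control Sprague Dawley rats, and they were the only control arrays among 24 samples, of which 19 had values. Of these, 5 arrays were from males of 10 to 12 weeks that the labels call controls, and 4 were from females labelled as euhydrated, whose age is not given in the sources used here. Each array was hybridised with a pool of 5 rats, so p-values measure only how much such pools differ from each other. The comparison groups used at the end were 5 arrays of males dehydrated for 3 days and 5 arrays of females that had no water for 72 hours but free access to food. The labels name no allele or transgene. The male and female arrays also differed in RNA extraction, labelling and software, so sex and processing cannot be told apart, and levels were not tested between the sets. Probe sets were instead ranked by mean signal within each set, over 31042 probe sets that are not Affymetrix controls.

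The supraoptic nucleus lies above the optic tract and consists largely of magnocellular neurons, which make vasopressin or oxytocin and send their axons to the posterior pituitary. The peptides are made as precursors, cut and amidated inside dense core granules, carried down the axon and released into the blood by action potentials. Vasopressin makes the kidney retain water, and oxytocin acts in birth, lactation and, in the rat, sodium excretion. Astrocytes surround these neurons, and a glial layer and the meninges form the ventral border of the nucleus, so a dissected sample holds those cells too.

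Signals are linear intensities that the authors scaled to a 2% trimmed mean of about 100 per array. A signal depends on the probes as well as on the transcript, so ranks are ranks of signals and not of molecules. Where a gene is called higher or lower than another, this refers to signals and not to amounts of transcript. The median signal was 38.9 to 40.4 on male and 43.1 to 46.5 on female arrays. Across probe sets, log2 signals of 2 arrays correlated at 0.967 to 0.980 among males, 0.937 to 0.969 among females and 0.924 to 0.958 between the sets. These are correlations across probe sets, which are not independent replicates, and 0 pairs of arrays held identical values. Female array 2 stood apart in RNA measures: its signal ratio of the 3′ to the 5′ probe set was 4.12 for GAPDH and 13.3 for beta-actin, against 1.02 to 1.05 and 2.44 to 3.65 on the other female arrays. The male arrays had ratios of 2.49 to 3.50 and 5.23 to 7.12.

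The most abundant probe sets were largely the same in both sets of arrays. Of the 310 probe sets in the highest 1% of each set, 275 (88.7%) were in the highest 1% of the other set as well, which is 0.886% of all probe sets ranked. They included the vasopressin and oxytocin precursors, 34 ribosomal proteins, 16 subunits of oxidative phosphorylation and 8 of 15 astrocyte markers. At the threshold, the probe sets of ranks 310 and 311 had signals of 1499.4 and 1498.2 in the male set and 1426.7 and 1426.1 in the female set. The 275 probe sets held 16.1 to 17.2% of the summed signal of a male array and 14.3 to 16.3% of that of a female array. Their median coefficient of variation was 5.88% over the male and 9.92% over the female arrays. Of the 275, 200 had a single gene symbol and named 195 genes, while 75 had none or several and are not named here.

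**Figure D1:**
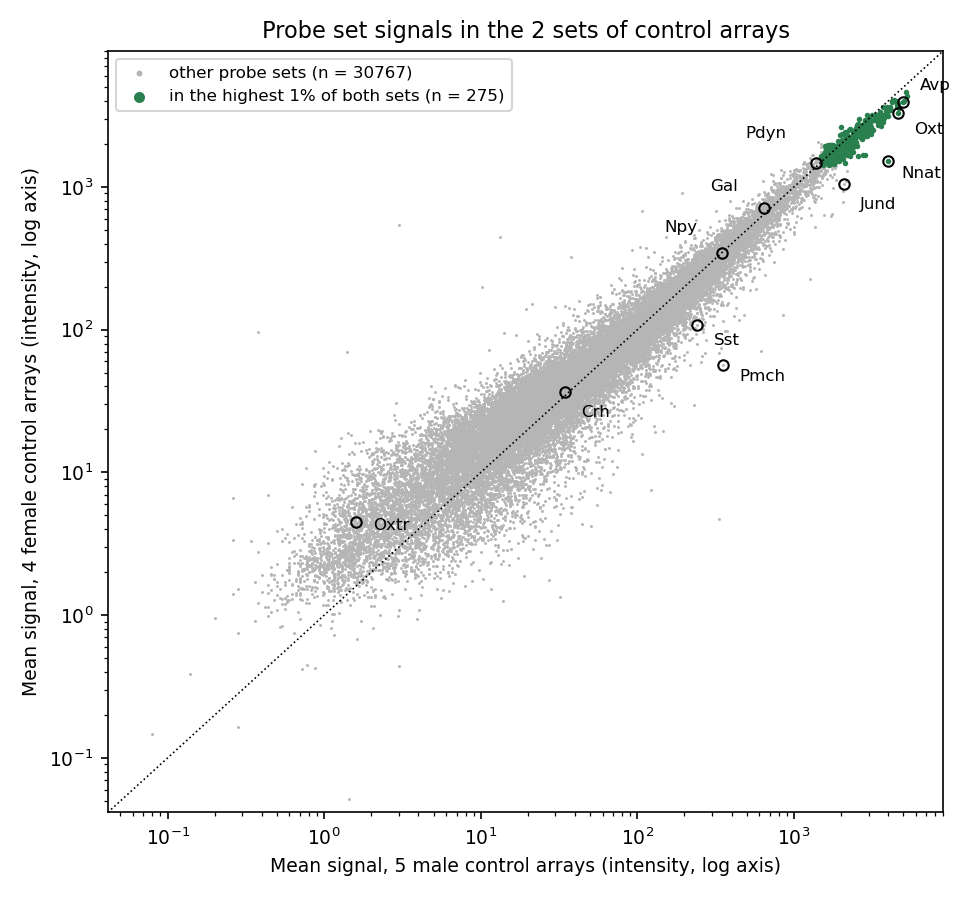
Mean signal of each of 31042 probe sets on the 5 male (x axis) and the 4 female control arrays (y axis), both log axes of intensity, with the 275 probe sets in the highest 1% of both sets in green, the line of equal signal dotted and some genes named in the text circled. Avp and Oxt lie at the upper end of both axes, Pmch and Sst lie below the line, and Oxtr lies in the lower left.

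The 15 named genes with the best mean rank mixed neuronal, glial and general functions. COX2, here the mitochondrially encoded subunit of cytochrome oxidase, held ranks 1 and 2 in the male and female sets, and COX1, another mitochondrially encoded subunit, 14 and 7. Ptgds, the prostaglandin D synthase of glia and meninges, held ranks 3 and 4. Of secreted proteins known from astrocytes, 3 followed: Apoe, the brain's main apolipoprotein, at 11 and 14, Cst3, a protease inhibitor, at 10 and 11, and Sparcl1, a matrix protein that promotes synapse formation, at 21 and 13. Zwint, a kinetochore protein that also binds SNAP25, held 13 and 3. Gnas, the stimulatory G protein subunit, held 12 and 6, and Tmsb4x, which binds free actin, 15 and 5. The ribosomal proteins Rps29, Rps23, Rpl26 and Rpl3 and the peptides Avp and Oxt completed the 15.

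Avp, the vasopressin precursor, held rank 4 in the male and rank 8 in the female set. Its signals were 5590.3, 5616, 4588, 4337 and 4848 on male arrays 1 to 5 and 3644, 4254, 4014 and 3739 on female arrays 1 to 4. The mean was 4996 ± 583 (SD, n = 5) in males and 3913 ± 277 (SD, n = 4) in females. Every male array lay above every female array, as was the case for 9.57% of all 14217 genes measured with a single symbol, and the sets were made with different software. On single arrays Avp ranked between 1 and 6 in males and between 7 and 12 in females.

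Oxt, the oxytocin precursor, held ranks 7 and 22. Its signals were 5572, 5112, 3949.6, 4012 and 4293 on male arrays 1 to 5 and 3001, 3576, 3226 and 3338 on female arrays 1 to 4. The mean was 4588 ± 719.5 (SD, n = 5) in males and 3285 ± 239 (SD, n = 4) in females, again without overlap of the sets. Male arrays 1 and 2 were the highest for both peptides. On single arrays Oxt ranked between 5 and 14 in males and between 17 and 47 in females.

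The promoters of these 2 genes are shown because the genes led the peptides in both sets. They are neighbours on rat chromosome 3 (RefSeq, build GRCr8): Avp spans 138246544 to 138248522 on the minus strand and Oxt 138235754 to 138236594 on the plus strand. The 250 bases before each start are at chr3:138248523-138248772 for Avp and chr3:138235504-138235753 for Oxt, and are written 5′ to 3′ on the strand of the gene. Capitals mark matches to CATAAA (chosen after reading both sequences), to CACGTG, the E-box read by basic helix-loop-helix factors, and to AGGTCA, the core site of many nuclear receptors, or its complement TGACCT.
Avp: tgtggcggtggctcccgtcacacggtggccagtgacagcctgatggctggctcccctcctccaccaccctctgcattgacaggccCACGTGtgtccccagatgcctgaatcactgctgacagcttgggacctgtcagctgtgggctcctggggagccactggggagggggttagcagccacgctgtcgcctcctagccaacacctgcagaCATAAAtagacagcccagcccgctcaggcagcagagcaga
Oxt: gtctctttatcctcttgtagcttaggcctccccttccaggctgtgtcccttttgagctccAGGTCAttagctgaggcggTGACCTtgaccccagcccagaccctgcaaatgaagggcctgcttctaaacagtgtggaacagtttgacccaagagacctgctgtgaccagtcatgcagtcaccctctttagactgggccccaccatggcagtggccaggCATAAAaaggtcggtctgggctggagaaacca
CATAAA began 40 bases before the start of Avp and 32 before that of Oxt. CACGTG began 165 bases before the start of Avp. AGGTCA began 190 bases before the start of Oxt on the gene's strand and 171 before it on the opposite strand. Of 11700 measured genes with a RefSeq promoter, 6.56% held CATAAA in this window on either strand, 7.85% CACGTG, 11.3% AGGTCA and 8.06% TATAAA. The motifs do not overlap one another in these sequences, and a match describes letters only. TATAAA was found in 14 of 31 promoters of the neuropeptide precursors (45.2%), in 23 of 163 of the abundant genes (14.1%) and in neither sequence above. The median gene length was 8299 bases over 190 abundant genes and 3398 over 40 ribosomal protein genes, against 22338 over 14167 genes with a length.

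For the other gene classes, a gene was represented by its brightest probe set and placed by percentile (100 is the highest signal). A gene ranked high and alike was at or above percentile 80 in both sets (signals of 161 and 157) and within 5 percentile points between them. Of 14217 genes, 4015 met this (28.2%). A list of genes not expected in brain served as a floor: of its 76 measured members, 1 met it, and 95% of the list lay at or below percentile 59.2 in males and 54.0 in females. The exception was Myh1, a muscle myosin, at percentiles 98.8 and 98.9. A gene at or below both values of the list is described as within the range of that list. This says only that its percentiles did not exceed the limits at or below which 95% of the list lay. The median of the list was lower, at percentiles 16.96 and 23.6, so a gene within the range can lie above a typical member.

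Of 44 neuropeptide precursors measured, 22 lay within the range of the genes not expected in brain (50%, against 35.8% of all genes). Ranked high and alike were 10 (22.7%, near the 28.2% of all genes). Besides Avp and Oxt, these were Agt, Pdyn, Cartpt, Gal, Penk, Npy, Nucb2 and Cck. Agt, angiotensinogen, which astrocytes make, was at ranks 123 and 140. Pdyn, prodynorphin, which vasopressin neurons store with vasopressin, had signals of 939.9, 1241, 1459.8, 1496 and 1755 on male arrays 1 to 5 and 1330.2, 1637, 1466 and 1483 on female arrays 1 to 4. Male array 1, which was near the top for Avp, was the lowest for Pdyn, and the sets overlapped (1378 ± 306, SD, n = 5, and 1479 ± 126, SD, n = 4). For Pdyn, the median over its probe sets gave percentiles of 71.2 and 88.8 in place of 98.8 and 99.1.

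Cartpt, the precursor of a peptide of hypothalamic neurons, had signals of 1349.5, 1051, 1180.0, 995 and 1428 in males and 1215, 1407, 1383 and 873 in females, with overlap. Gal, the precursor of galanin, which is known from vasopressin neurons, was at percentiles 96.3 and 96.97 (648 ± 159 in males and 717 ± 56.4 in females, SD). Npy was at 91.3 and 91.6, Penk, proenkephalin, at 94.1 and 89.3, Nucb2, the nesfatin precursor, at 86.9 and 88.7, and Cck, which oxytocin neurons contain, at 83.4 and 84.05. Crh, the corticotropin-releasing hormone, lay within the range of genes not expected in brain at 46.8 and 44.3, with signals of 39.4, 19.4, 32.8, 38.1 and 42.5 in males and 36.0, 40.6, 37.6 and 31.7 in females. Genes that mark other hypothalamic neurons, most of them peptide precursors, were not uniform. Of 14 measured, Cartpt and Npy ranked high and alike (14.3%, against 28.2% of all genes), and 3 more reached percentile 80 in the male set only. Within that range lay 6 (42.9%, against 35.8% of all genes), with Pomc, of the arcuate nucleus, the lowest at 4.72 and 5.29.

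Pmch, Sst and Trh, the thyrotropin-releasing hormone precursor (81.8 and 76.95), passed percentile 80 in the male set only, and for Sst this rested on male array 1. Pmch, the precursor of melanin-concentrating hormone of the lateral hypothalamus, had signals of 1001, 239.7, 184, 259 and 65.9 on male arrays 1 to 5 and 63.5, 31.1, 63.3 and 69.3 on female arrays 1 to 4. Without male array 1 its male percentile went from 91.4 to 82.8. Sst, somatostatin, read 740.2, 113, 106, 143 and 106 in males and 106, 131, 114 and 82.2 in females, and without male array 1 its percentile went from 86.8 to 74.0. The summed signal of the 14 markers of other hypothalamic neurons, which include both genes, was 4146 on male array 1, 2158 to 2386 on the other male arrays and 1655 to 2365 on the female arrays. Over the 12 markers other than Pmch and Sst it was 2405, against 1755.5 to 2214 and 1503 to 2203. The part of neighbouring tissue in these signals was not tested.

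**Figure D2:**
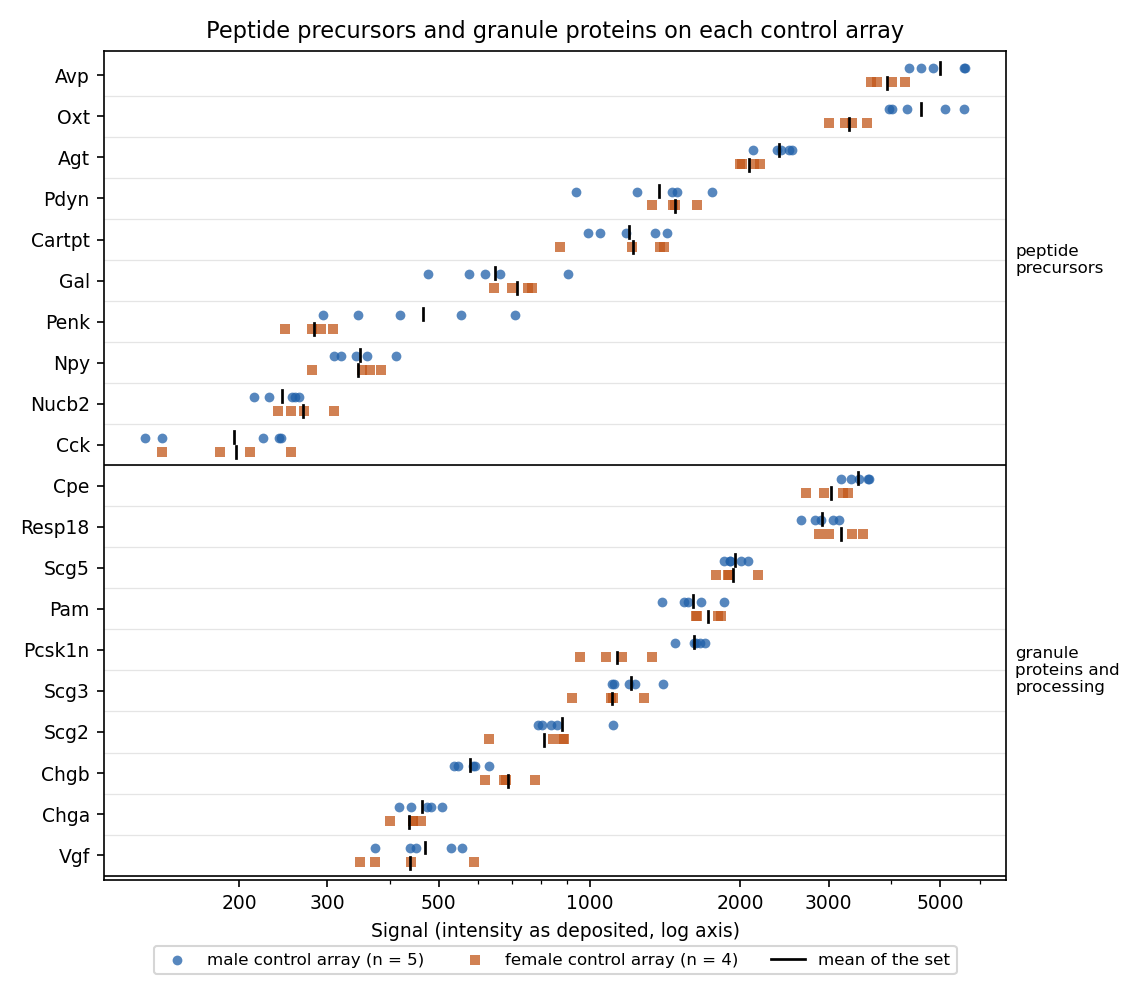
Signal on each control array (log axis of intensity; blue circles, 5 male arrays; orange squares, 4 female arrays; black bars, means) for the 10 neuropeptide precursors ranked high and alike and 10 granule or processing proteins. Avp and Oxt show every male array above every female array, while the arrays overlap for Pdyn, Cartpt, Npy and Cck.

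The machinery that packs and cuts the peptides ranked high as a group. Of 31 granule and processing genes, 22 ranked high and alike (71.0%, against 28.2% of all genes). Within the range of genes not expected in brain lay 3 (9.68%, against 35.8% of all genes). Cpe, the carboxypeptidase that trims the cut peptides, had signals of 3179 to 3615 in males and 2706 to 3281 in females, at ranks 37 and 41. Resp18, a granule protein of neuroendocrine cells, read 2640.2 to 3139 and 2870.3 to 3504 at ranks 66 and 29. Scg5, the chaperone of proprotein convertase 2, was at 196 and 170, and Pam, which amidates vasopressin and oxytocin, at 280 and 218, though the median over its probe sets lay at percentiles 17.4 and 24.4. Atp6ap2, an accessory subunit of the proton pump, was at 390 and 315. The granins Scg2, Scg3, Chgb, Chga and Vgf all ranked high and alike, at percentiles from 94.1 and 93.9 for Chga to 98.5 and 98.5 for Scg3. Pcsk2, the convertase itself, was lower at 56.8 and 59.3, and Rab27b, a granule docking GTPase, was high in males only (81.3 and 60.2). Pcsk2 was named after its values were seen.

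Receptors for peptides were mostly low. Of 60 measured, 5 ranked high and alike (8.33%, against 28.2% of all genes). Within the range of the genes not expected in brain lay 43 (71.7%, against 35.8% of all genes). Ntsr2, the neurotensin receptor known from astrocytes, was the highest, with 1252 to 1383 in males and 826 to 1208 in females, where array 2 was the lowest. Adcyap1r1, the PACAP receptor, was at percentiles 96.2 and 95.6, with male signals of 602, 616, 645, 578 and 722 and female signals of 521, 510.5, 579.9 and 584. Ramp1 (91.7 and 92.9) and Ramp2 (92.4 and 89.3) are partners of calcitonin-type receptors, and Npr2 (84.4 and 83.1) is the receptor of C-type natriuretic peptide. The receptors of the nucleus's own hormones were not among them: Oxtr was at percentiles 2.88 and 6.46, Avpr1a at 13.7 and 12.2 and Avpr1b at 24.4 and 34.3, all within the range of genes not expected in brain. Oprk1, the dynorphin receptor, stood at 69.9 and 73.00 and Agtr1a, an angiotensin receptor, at 33.7 and 37.00. These 5 receptors were named after their values were seen, and a low signal does not show that a transcript is absent.

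Among 58 receptors for monoamines, acetylcholine, purines and lipids, 3 ranked high and alike (5.17%, against 28.2% of all genes). Within the range of genes not expected in brain lay 41 (70.7%, against 35.8% of all genes). S1pr1, a sphingosine phosphate receptor of endothelium and glia, was at percentiles 97.02 and 97.9. Htr2c, a serotonin receptor, had signals of 469, 389, 388, 550.5 and 419.7 in males and 438, 438, 481 and 445 in females. Cnr1, the cannabinoid receptor through which released endocannabinoids quiet the inputs of these neurons, was at 88.97 and 87.6, with 256 to 328 in males and 223 to 285 in females. Hrh1, the histamine receptor, was lower at 67.5 and 68.6, and Adra1b, an adrenergic receptor, at 62.1 and 53.7 (both named after their values were seen).

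Of 40 receptor subunits of the fast transmitters, 21 lay within the range of genes not expected in brain (52.5%, against 35.8% of all genes). Ranked high and alike were 9 (22.5%, against 28.2% of all genes). Both subunits of the GABA-B receptor were among them, Gabbr1 at 98.04 and 98.8 and Gabbr2 at 94.7 and 92.99. Gabbr1 read 1068, 934, 1003, 893 and 1133 in males and 1239, 1199, 1402 and 1273 in females. The beta subunits of the GABA-A receptor were also high, Gabrb2 at 96.4 and 96.5 and Gabrb1 at 95.8 and 94.3. Gria2, the AMPA receptor subunit that limits calcium entry, had signals of 997, 745, 773, 772 and 769 in males and 444, 499, 419.9 and 458 in females, and its percentiles were 97.4 and 94.2. Glrb, Grin1, Gria3 and Grin2c completed the 9, and Gabra2 passed in males only (81.3 and 74.2).

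Of 61 nuclear, cytokine and growth factor receptors, 12 ranked high and alike (19.7%, against 28.2% of all genes). Ntrk2, the BDNF receptor, was highest, with 1543 to 1696 in males and 1062 to 1557 in females at percentiles 99.1 and 98.8. Pdgfra, which marks oligodendrocyte precursors and meningeal cells, was at 95.4 and 91.6, Nr2f2, an orphan nuclear receptor, at 94.7 and 90.8, Il6st, the shared receptor of the interleukin 6 family, at 94.4 and 90.2, and Fgfr3, an astrocyte marker, at 91.95 and 92.6. Among hormone receptors, the glucocorticoid receptor Nr3c1 was also high and alike (87.03 and 89.4). The prolactin receptor Prlr was at 75.9 and 80.4, and the oestrogen receptors lay within the range of genes not expected in brain, Esr1 at 16.3 and 7.80 and Esr2 at 10.1 and 5.04. These 4 were named after their values were seen. Bmpr2 and Nr1d1 passed percentile 80 in the male set only.

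Potassium channels gave 10 high and alike of 58 (17.2%, against 28.2% of all genes). Among them are 3 genes of the A-type current: Kcnd2, the Kv4.2 pore subunit, at percentiles 93.4 and 94.5, with its partner proteins Kcnip4 at 94.97 and 95.7 and Kcnip1 at 89.4 and 88.98. Kcnip4 read 387, 491, 544, 543 and 615 in males and 526, 642, 541 and 549.9 in females, which overlapped. Kcnc2, a Kv3 subunit of fast firing cells, was at 93.9 and 95.8, and Kcnmb4, the neuronal beta subunit of the large calcium-activated channel, at 93.3 and 96.1. For Kcnmb4 every female array (567 to 636) lay above every male array (292 to 551), as for 9.99% of all genes. The pore subunit of that channel, Kcnma1, was at 50.2 and 49.96, and Kcnn3, a small calcium-activated channel behind the afterhyperpolarisation, at 33.1 and 27.7 (both named after their values were seen). Kcnk2 was high in males only and Kcnh1 in females only.

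Of 70 other channels, 15 ranked high and alike (21.4%, against 28.2% of all genes). The highest was Aqp4, the water channel of astrocyte endfeet, with 2584 to 3042 in males and 2339.5 to 2765 in females at rank 73 in both sets. The pores of the outer mitochondrial membrane followed, Vdac1 at percentiles 98.1 and 98.1, Vdac2 at 98.7 and 98.8 and Vdac3 at 99.2 and 99.4, and Clic4, a chloride channel protein, at 97.8 and 97.6. Channels of the action potential were lower but passed: Scn2a at 88.2 and 90.7 and Scn1a at 81.3 and 81.4. Nalcn, the sodium leak channel, and Cacna1b, the N-type calcium channel, also passed. The osmosensory candidates Trpv1 (17.9 and 22.3) and Trpv4 (3.07 and 4.45) lay within the range of genes not expected in brain, while Trpv2 was at 54.3 and 54.1. The sodium, calcium and Trpv genes were named after their values were seen. Among beta subunits of calcium channels, Cacnb3 passed in males only and Cacnb2 in females only.

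**Figure D3:**
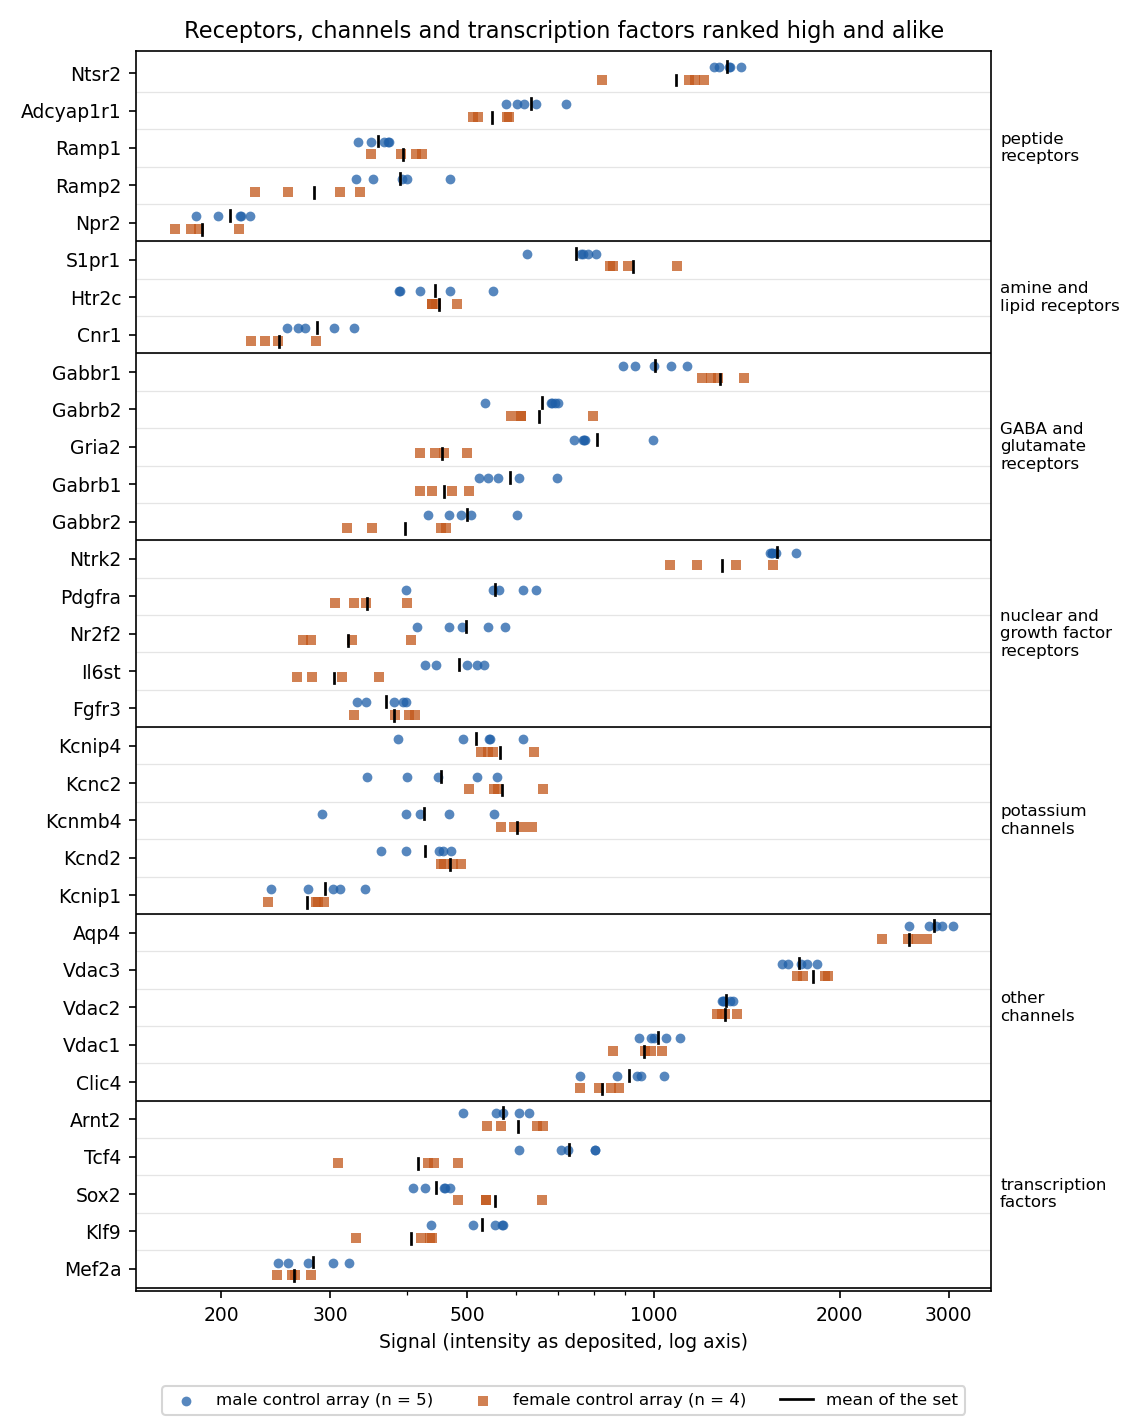
Signal on each control array (log axis of intensity; blue circles, 5 male arrays; orange squares, 4 female arrays; black bars, means) for up to 5 members per class of receptors, channels and transcription factors of the hypothalamus and of neurons that ranked high and alike. Among the genes plotted Aqp4 has the highest signals, and Gria2 and Tcf4 lie higher on every male than on every female array.

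Transcription factors of the hypothalamus gave 11 high and alike of 58 (19.0%, against 28.2% of all genes). Arnt2, the partner of Sim1 in forming these neurons, was the highest of them in females and below Tcf4 in males, at 95.6 and 96.2, with signals of 492, 556, 629, 570.1 and 606 in males and 537, 663, 567 and 647 in females. Sim1 itself was at 68.6 and 81.1 and passed in the female set only, and its male signals ran from 48.0 to 136. Tcf4, a basic helix-loop-helix factor, was at 96.9 and 93.4, Sox2, of glia and progenitors, at 93.7 and 95.6, Klf9, a target of glucocorticoid and thyroid hormone, at 95.1 and 93.2, and Mef2a at 88.8 and 88.4. Otp and Pou3f2, which are also needed to form these neurons, were at 16.4 and 4.96 and at 0.34 and 1.97, both within the range of genes not expected in brain and named after their values were seen.

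Of 87 general and signal-regulated factors, 37 ranked high and alike (42.5%, against 28.2% of all genes). Tsc22d1, a leucine zipper protein, had signals of 2373 to 3149.5 in males and 1642 to 1706 in females without overlap, at percentiles 99.8 and 99.3. Jund, an AP-1 subunit, read 2285, 2099.7, 1943, 2209.9 and 1851 in males and 1179, 1244, 1087 and 710.5 in females, again without overlap, yet at percentiles 99.5 and 98.3; the median over its probe sets was at 8.55 and 12.1. Sub1 (99.3 and 99.3), Epas1 (98.1 and 97.8) and Xbp1 (97.7 and 97.97), the factor of the unfolded protein response, followed. Atf4, of the same stress response, was at 96.9 and 96.8, whereas Fos, the immediate early gene used as a marker of activation in this nucleus, was at 65.6 and 63.6 (both named after their values were seen).

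The choice of the brightest probe set matters for such genes, since other probe sets of a gene can be much lower. With the median over a gene's probe sets, Gabbr1 was at percentiles 44.1 and 77.7, Adcyap1r1 at 27.8 and 29.6 and Kcnc2 at 28.3 and 28.0. Many other named genes were lower too. They include Klf9 (31.7 and 40.35), Sox2 (46.7 and 48.3), Gabrb2 (51.15 and 56.4), Clic4 (54.5 and 60.2), Tsc22d1 (56.7 and 59.1) and Apoe (56.8 and 50.9). Of 106 percentiles of named genes that moved by over 5 points under an alternative, all but 7 moved under this median.

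Genes of general cell functions were mostly high, where 28.2% of all genes ranked high and alike. Of 42 ribosomal proteins, 38 ranked high and alike (90.5%), of 65 subunits of oxidative phosphorylation 62 (95.4%), of 15 glycolytic enzymes 13 (86.7%), of 37 translation factors and chaperones 35 (94.6%), and of 40 genes of cytoskeleton and axonal transport 33 (82.5%). Glycolysis was led by Aldoa at ranks 44 and 33, Pgam1 at 85 and 64 and Ldhb, a lactate dehydrogenase subunit, at 106 and 87. Translation was led by Eef1a1, which brings aminoacyl tRNA to the ribosome, at 23 and 32, and Eif4a2, an RNA helicase, at 101 and 58. In the cytoskeleton, Tubb2a (a tubulin, 111 and 77), Stmn1 and Stmn3 (which destabilise microtubules, 184 and 102, and 159 and 149) followed Tmsb4x and Actg1. Members of these lists that did not pass included Rpl28, at percentiles 35.2 and 36.9, and Kif1a, the motor of dense core granules, which was high in males only (91.1 and 63.7). Rpl28 was named after its values were seen.

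Pumps and transporters gave 35 high and alike of 45 (77.8%, against 28.2% of all genes). They were led by Slc1a3, the astrocyte glutamate transporter (116 and 119), and Atp1b1, the beta subunit of the sodium pump (118 and 125). Subunits of the proton pump that acidifies granules were among them, Atp6v0c at ranks 182 and 244, Atp6v1d at 275 and 300 and Atp6v0d1 at 322 and 308. Synaptic genes gave 19 of 32 (59.4%, against 28.2% of all genes). Snap25, of the fusion machinery, was at 113 and 136, Syt4, a granule synaptotagmin, at 440 and 292, Nsf, which recycles that machinery, at percentiles 97.5 and 96.9, and Snap91, of clathrin coats, at 97.7 and 97.9. Gad1, which makes GABA, was at 98.2 and 96.9, and the median over its probe sets was at 55.6 and 58.35. Of 5 markers of GABAergic neurons, Gad1 and Slc32a1 (85.7 and 81.1) ranked high and alike (40%, against 28.2% of all genes). Dlx1 (68.5 and 66.7), Dlx5 (52.2 and 54.3) and Gad2 (45.9 and 20.3) did not.

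**Figure D4:**
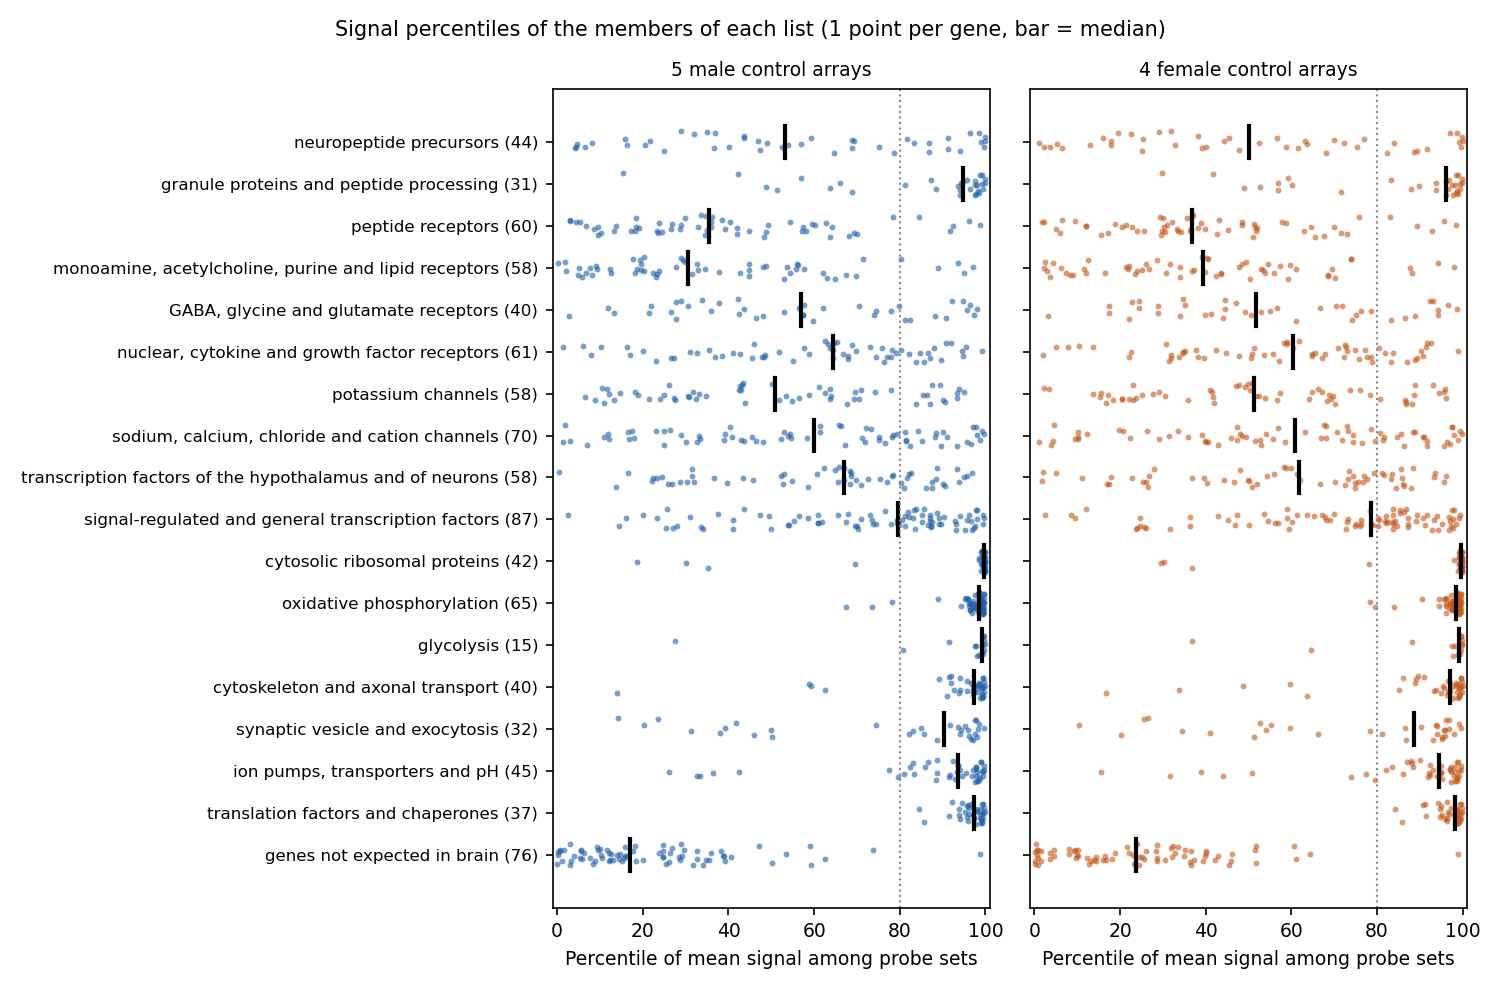
Percentile of mean signal among 31042 probe sets (x axis, 0 to 100) for each member of the gene lists, 1 point per gene, in the male set (left) and the female set (right); black bars are medians, the dotted line is percentile 80 and the number of members is in brackets. Ribosomal proteins have medians of 99.6 and 99.5, peptide receptors 35.5 and 36.7, and genes not expected in brain 16.96 and 23.6.

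Most marker genes of the labelled tissue ranked high, and so did most of those of astrocytes and oligodendrocytes. Of 12 magnocellular markers, 8 ranked high and alike (66.7%), with summed signals of 12804 to 15020.3 on male and 11262 to 12792 on female arrays. Of 15 astrocyte markers, 14 did (93.3%), and 8 were among the abundant genes, including S100b at ranks 38 and 37, Gja1, the astrocyte connexin, at 52 and 72, and Gfap, the astrocyte filament protein, at 60 and 75. Of 13 myelin and oligodendrocyte markers, 9 did, led by Mbp at 58 and 46 and Mobp at 140 and 158. Of 15 microglia and macrophage markers, 3 did (20%, against 28.2% of all genes), with Ctss at 99.01 and 98.3. Of 13 endothelial markers, 4 did (30.8%), with Cldn5 at 95.4 and 96.5. Low members included Cx3cr1 of microglia (28.6 and 36.6), Slc1a2 of astrocytes (42.4 and 38.9) and Olig2 of oligodendrocytes (29.2 and 32.5). These low members were named after their values were seen. Markers of cortical neurons (1 of 10), ependyma and choroid plexus (1 of 11) and anterior pituitary (0 of 7) were mostly low, and of the 7 pituitary markers none was above percentile 63.6 in males or 60.7 in females. In bulk tissue, more cells of a type and more RNA per cell cannot be told apart.

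Markers of mural cells and meninges stood at a higher percentile in the male set for all 17 members measured, against 7032 of all 14217 genes. The median ratio of the male to the female mean was 1.88, and for 6 of 17 every male array lay above every female array (9.57% of all genes). Their summed signal was 10246 to 17397 on male and 7630.8 to 10158 on female arrays, and male array 5 had the lowest male value. Igf2, of the meninges, read 2432, 2626, 2248, 2069 and 1346 in males and 940.3, 977, 1367 and 1131 in females. For Igf2, the median over its probe sets gave percentiles of 12.0 and 7.30 in place of 99.5 and 98.5. The part of dissection and of processing in the difference between the sets was not tested.

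**Figure D5:**
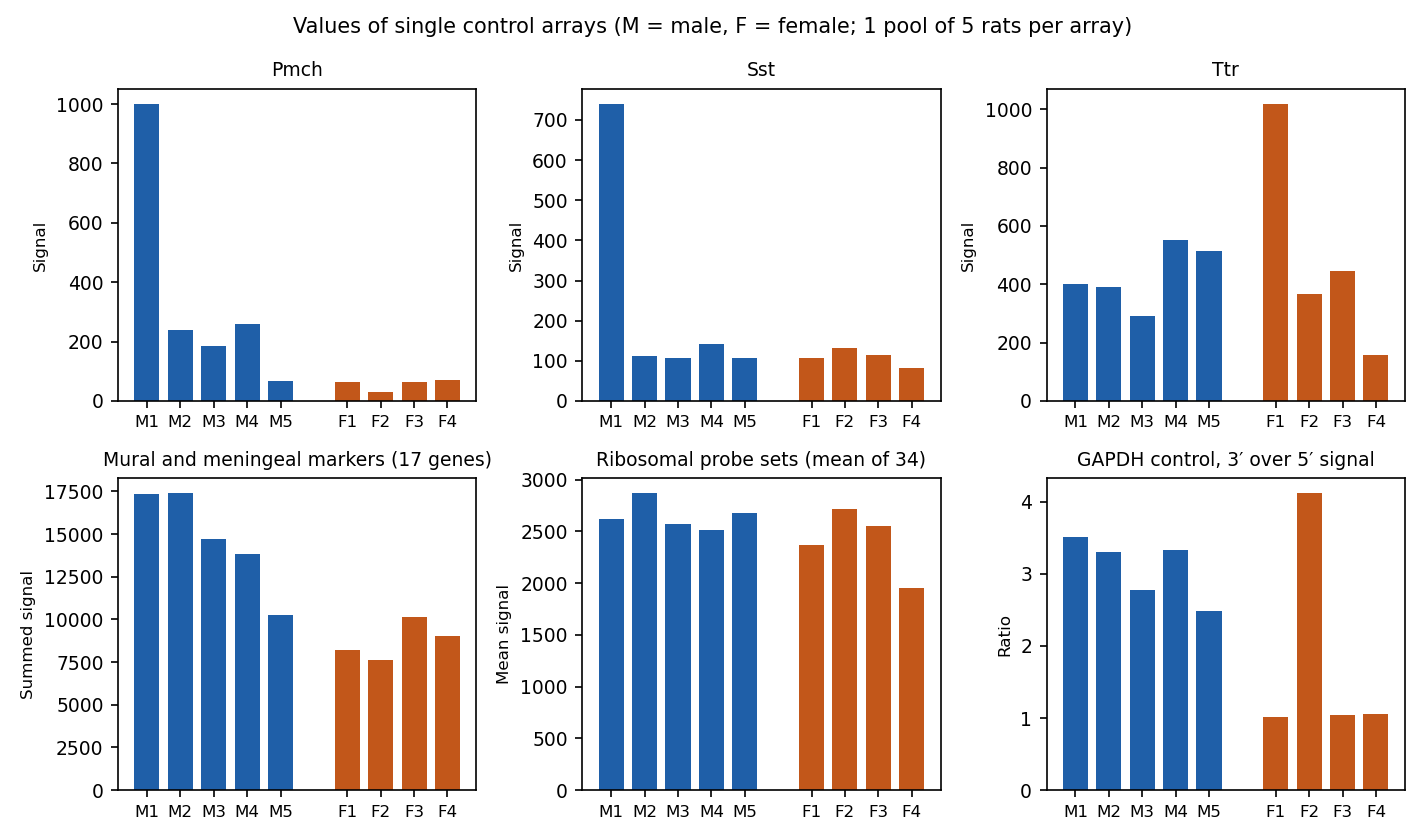
Values of each control array (bars from 0; blue M1 to M5 male, orange F1 to F4 female): signals of Pmch, Sst and Ttr, the summed signal of 17 mural and meningeal markers, the mean signal of 34 ribosomal probe sets, and the ratio of 3′ to 5′ signal of the GAPDH control. M1 is the highest for Pmch and Sst, F1 for Ttr, F2 for the GAPDH ratio, and F4 is the lowest for the ribosomal probe sets.

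The abundant genes that varied most between pools differed in kind. Nnat, an imprinted endoplasmic reticulum protein, was even among males (4268, 4069, 3962, 3901 and 3856) and both lower and spread in females (1409, 2209, 1477 and 990.3), at ranks 18 and 280. Clu, clusterin of astrocytes, read 2039.7, 752, 2303 and 1969.8 in females, with array 2 the lowest, and 2649, 2419, 2054, 1895 and 1796 in males. Hbb, a haemoglobin chain listed as a blood marker, read 2056, 1930.1, 1672, 1514 and 1608 in males and 2331, 1207, 1988 and 1474 in females. Of 5 blood markers measured, Hbb alone ranked high and alike (20%, against 28.2% of all genes). The others ran from Pf4 at percentiles 71.4 and 64.8 down to Ppbp at 16.9 and 29.6. Genes of translation had a common pattern in females: Rps28 read 1783, 2253, 1779 and 902, Rpl41 2316, 2714, 2681 and 1509 and Tma7 1749, 2267, 1946 and 1136, with array 2 highest and array 4 lowest for each. The mean of the 34 abundant ribosomal probe sets was also highest on array 2 and lowest on array 4, with 2371, 2721, 2550.2 and 1956 on female arrays 1 to 4, against 2513.5 to 2870.1 in males. Subunits of oxidative phosphorylation did so too (1878, 2153, 2067 and 1489 over 16 probe sets), while the other 225 abundant probe sets had means of 2200.2, 2390.5, 2416 and 2107. Female array 2 is the one with the high 3′ to 5′ ratios, and array 4 has ratios of 1.05 and 2.77; the part of RNA quality in the spread was not tested.

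Whether the abundant genes change when water is withheld was read from the dehydrated arrays of each set. In males 79 of the 275 probe sets passed (28.7%), 48 higher and 31 lower, by limma with Benjamini-Hochberg adjustment over 21729 probe sets, of which 17.7% passed (8.33% higher and 9.37% lower). The share cannot be read apart from precision, since the median standard error of a log2 fold change was 0.05 for the abundant probe sets and 0.12 for all. The split depends on scaling: 88 rises and 7 falls after centring arrays on their median, and 38 and 57 after quantile normalization. The control arrays chose the members and also serve as the controls of this comparison. The number of falls was 17 without control array 2, 18 to 20 without dehydrated array 2, 4 or 5, and 47 without dehydrated array 3; 52 probe sets passed with no filter on low signals and 15 in 1 fit over all 4 groups. In the highest 1% of the dehydrated males, 257 of the 275 (93.5%) were found again.

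The largest male rise was that of Gnas, in a probe set other than the one ranked above, by 0.52 ± 0.08 on the log2 scale (SE, adjusted p = 0.000778, limma), from 2116 ± 326 to 3009 ± 87.0 (SD, n = 5 arrays each). Pcp4, which tunes calmodulin, rose by 0.46 ± 0.05: its dehydrated arrays read 3292, 3159, 3431, 3258 and 3455, and its controls 2490.3, 2334, 2253, 2384 and 2618, without overlap. Pam rose by 0.40 ± 0.06, from 1392, 1569, 1667, 1541 and 1854 to 2205, 2096, 2127, 1997 and 2122, and Hspa5, the main chaperone of the endoplasmic reticulum, by 0.38 ± 0.05. Atp1b1 rose by 0.33 ± 0.04 and Bcat1, an enzyme of branched-chain amino acids, by 0.32 ± 0.04. For these 6 genes, picked as the largest rises that passed, no dehydrated array overlapped a control array. The share of all probe sets without such overlap was not counted, here or for the genes below. Adjusted p-values of the 6 by limma ran from 1.8e-05 to 0.000778.

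Hbb had the largest fall, -0.97 ± 0.10 (SE, adjusted p = 1.5e-05, limma), from 2056, 1930.1, 1672, 1514 and 1608 to 1019, 849.9, 888, 1001 and 719.5, without overlap. Clu (-0.40 ± 0.09), Tsc22d1 (-0.30 ± 0.07), Rpl24 (-0.28 ± 0.05), Agt (-0.28 ± 0.07) and Scd2, a fatty acid desaturase (-0.25 ± 0.05), followed, with adjusted p-values by limma from 0.00264 to 0.0129 over these 5. The control and dehydrated arrays overlapped for Tsc22d1 and Agt, and their calls were lost after median centring. In 1 fit over all 4 groups the calls of Gnas, Pcp4, Clu, Rpl24 and Scd2 were lost, with adjusted p-values by limma from 0.0525 to 0.32. In the fit of the male arrays alone, 9.37% of all 21729 probe sets fell and 8.33% rose, with a median of -0.04. Of the 34 ribosomal probe sets 10 fell and 0 rose, with a median of -0.11. That count was 0 in 1 fit over all 4 groups, 6 with no filter, 19 after quantile normalization and 1 after median centring. The median stayed at -0.11 in the first 2 of these and was -0.14 and -0.03 in the others. With 1 array left out it was 5 without control array 2 or dehydrated array 5, 16 without dehydrated array 3, and in between for the others.

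In females, dehydrated array 5 went against its label, with an Avp signal of 50.6 where the other 4 dehydrated arrays read 3834 to 7666, and only 165 of the 275 (60.0%) were in its highest 1%. Without it, 1 of the 275 passed (0.364%, 0 rises and 1 fall, against 2.95% of all 21729 by limma, 1.77% higher and 1.19% lower), and 37 were at an unadjusted p under 0.05. The count was 4 without control array 2, 5 without dehydrated array 3, 1 without control array 4 and 0 without any other array, and 28 in 1 fit over all 4 groups. The gene that passed was Nnat, which fell by 0.86 ± 0.20 on the log2 scale (SE, adjusted p = 0.0405, limma), from 1409, 2209, 1477 and 990.3 in 4 controls to 817, 751, 744 and 908 in 4 dehydrated arrays, without overlap. With all 9 female arrays 0 passed, against 0.0046% of all probe sets, 2 were at an unadjusted p under 0.05, and Nnat had an adjusted p of 0.297. Over the 8 fits that each left out 1 array, the adjusted p-values of Nnat by limma ran from 0.0139 to 0.114. It kept its call without control array 2 or 4, and lost it without any of the other 6 arrays, after median centring and with no filter. Nnat also passed as a fall in males, by 0.17 ± 0.05 (SE, adjusted p = 0.0423, limma). Female estimates for the male rises were 0.96 ± 0.25 for Gnas, 0.55 ± 0.22 for Pcp4, 0.44 ± 0.11 for Pam and 0.43 ± 0.11 for Hspa5. Those of Atp1b1 and Bcat1 were 0.32 ± 0.11 and 0.21 ± 0.12. None of these 6 passed, with adjusted p-values by limma from 0.0539 for Pam to 0.40 for Bcat1. Dehydrated and control female arrays did not overlap for Pam, Hspa5 and Atp1b1, and overlapped for Gnas, Pcp4 and Bcat1. The difference between the female and male effects was tested by an interaction term in limma for the 13 genes named, and 0 passed, with adjusted p-values from 0.219 to 0.993.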

How the data were processed

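The authors deposited 1 linear intensity per probe set and array; per the submitters' processing notes the software was GCOS 1.2 on male and MAS5 on female samples. Per the labels, male tissue was stored in RNAlater, homogenised in QIAzol, cleaned on RNeasy columns and amplified with the MessageAmpII kit; female tissue was extracted with Trizol and labelled by the Affymetrix protocol. The deposited intensity values have a 2% trimmed mean of about 100 on each array. Background and summary settings are not given in the sources used here. The columns of 5 lactating samples held no values and were not analysed here.

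The 57 Affymetrix control probe sets were left out of the ranks. Ranks used mean deposited signals within each set; abundant means the highest 1% in both sets. The platform annotation gave 20826 of the ranked probe sets a single symbol, and a gene took its probe set with the highest mean percentile. Promoters and gene lengths are those of RefSeq on GRCr8. Dehydration was tested with lmFit and eBayes (with a trend) of limma 3.58.1 under R 4.3.3 on log2(value + 32) after rescaling each array to a trimmed mean of 500, over probe sets above the 30th percentile of mean level, with Benjamini-Hochberg adjustment and a threshold of 0.05; it was tested on simulated data. Fold changes on that scale understate those of low signals. The number of arrays limits the precision. Ranks and figures were made in Python 3.11.15 (matplotlib 3.10.9).

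The members, gene lists and tests were chosen with earlier results of these data known. The named genes were the 15 best mean ranks, Avp, Oxt and Crh, up to 5 genes per list ranked high and alike, up to 2 at or above percentile 80 in 1 set only, the 8 most variable abundant genes, 2 per marker list, and the 6 largest rises and 6 largest falls among abundant genes; genes picked outside this rule are said to be so, and other list members are named without a test. Alternatives were other thresholds, medians or log means over arrays, other normalizations, offsets and filters, 1 fit over 4 groups, and leaving out each array.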

Additional observations from a re-analysis of the deposited data

Results flagged for a closer look

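In 19 of 290 sets of control arrays of a named gene (6.55%), 1 array lay far from the others by Dixon's test. Some of these genes were named through the same values, for a large spread or for a high mean in 1 set only. The share can therefore not be set against a chance rate. Of the 19 flagged values, 6 were high values of male array 1. They were Pmch at 1001 against 65.9 to 259 on the other male arrays, Sst at 740.2 against 106 to 143, Cga, the shared subunit of pituitary hormones, at 238 against 23.0 to 51.8, Gria2 at 997, Nsf at 1000.5 and Syn1, a synapsin, at 213. The same array was the lowest for Gabrb2 (534). The summed signal of 7 pituitary markers was 420.2 on that array, 108 to 150 on the other male arrays and 156 to 232 on the female arrays. Over the 6 markers other than Cga it was 182 on male array 1, 81.5 to 108.5 on the other male arrays and 128 to 182 on the female arrays. The part of neighbouring tissue in these values was not tested.

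Among the other male arrays, array 2 was low for S1pr1 (624) and high for Rps28 (3550.2), array 3 was high for Ntrk2 (1696), array 4 low for Pfkl, a glycolytic enzyme (146), and array 5 high for Cacnb2 (146) and low for Slco1a4, an endothelial transporter (607). Among the female arrays, array 2 was low for Pmch (31.1) and high for Gabrb2 (798). Array 3 was high for Htr2c (481) and Eef1a1 (3455) and low for Kcnip1 (238), and array 4 was low for Klf9 (330.4).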

How the results depend on the processing

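The threshold set the number of abundant probe sets: 543 with the highest 2% and 137 with the highest 0.5%. Over 278 percentiles of named genes and 13 alternatives, 3475 of 3614 values moved by at most 1 SD between arrays. Many of them could not move, so this count is no measure of robustness. Leaving out an array of 1 set leaves the percentiles of the other set unchanged. A gene with 1 probe set equals its own median over probe sets. Of all values, 106 moved by over 5 points. Of these 106, 7 (Pmch, Sst and Cga in males) moved by other means than taking the median over probe sets. Of male dehydration among abundant genes, 52 passed with no filter (18 falls) and 15 in 1 fit with 4 groups (10 rises and 5 falls); median centring gave 88 rises and 7 falls, and quantile normalization 57 falls. With 1 array left out, 56 to 90 passed, with 34 to 52 rises and 17 to 47 falls. Of female dehydration, quantile normalization gave 2 (1 rise), median centring 0, no filter 0, all 9 arrays 0, and 1 fit with 4 groups 28 (26 rises and 2 falls). With 1 array left out, 0 to 5 passed, with 0 to 5 rises and 0 to 1 falls. The cause of these shifts was not tested. The 12 male changes named kept their sign under 16 alternatives. No paired analysis was possible because the only titles that share numbers are those of control and lactating females, and the latter had no values.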

Other observations

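Some abundant genes belonged to none of the gene lists above. Those given here were chosen singly after their values were seen, and nothing is said of the gene groups they come from. Prnp, the prion protein, stood at ranks 49 and 83 in the male and female sets, and App, the amyloid precursor, at 90 and 96. Itm2c and Itm2b, membrane proteins of the BRI family, were at 41 and 38 and at 91 and 94. Ndn, necdin, was at 161 and 93, with 1852 to 2447 in males and 2258 to 2618 in females, and Nap1l5, a nucleosome assembly protein, at 92 and 89, with 2586 to 2748 and 2166 to 2748. Meg3, an RNA that is not translated, was in the highest 1% of the female set at rank 290 and just outside it in the male set at rank 334.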
